A study of Mus musculus with 31 samples.

Results

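The genes of the cell cycle and of DNA replication were followed in the livers and the epididymal fat pads of mice exposed to intermittent hypoxia. The set was fixed by name as 42 genes, 11 of the G1 switch, 10 of origin licensing, 5 of DNA synthesis, 8 of mitotic entry and 8 of the mitotic checkpoint and exit, out of 16593 genes with a named probe. Of these, 38 had at least 1 named probe (69 probes in all), and no probe was named here for Cdk4, Ccnb1, Aurkb and Mki67. Male C57BL/6JRj mice aged 16 weeks were exposed for 14 days, 8 h per day, to intermittent hypoxia (IH), in which each cycle of 60 s held a hypoxic plateau of 30 s (5% FiO2) and a normoxic plateau of 30 s (21% FiO2), or to cycles of air and air (normoxia, NO), and were killed on day 15. Each array read the RNA of 1 tissue sample, with 8 adipose IH, 8 adipose NO, 7 liver IH and 8 liver NO arrays. All mice were of the same strain with no other genotype or agent, and each array read a whole tissue and not 1 cell type.

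A cell leaves rest when D-type cyclins and their kinases phosphorylate the retinoblastoma protein, which frees E2F factors to switch on the genes of DNA replication. Origins are licensed by the origin recognition complex, Cdc6 and Cdt1, which load the Mcm2-7 helicase, and PCNA then holds the polymerases on the template. Cdk1 with cyclin A or B drives entry into mitosis, the spindle checkpoint waits for all chromosomes to attach, and Cdc20 with the anaphase-promoting complex ends it. In the adult liver and in fat pads nearly all hepatocytes and adipocytes rest outside the cycle, and the dividing cells of fat are mostly stromal precursors, endothelial cells and immune cells.

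Between 10775 and 12340 probes were detected on the adipose IH arrays, 10261 to 11932 on the adipose NO arrays, 8712 to 9293 on the liver IH arrays and 8359 to 9158 on the liver NO arrays. Detection means a detection p-value under 0.01; precision is limited by how many arrays each group had. The labels of the tissues were borne out by their markers: the mean log2 intensity of 7 adipocyte markers lay between 9.84 and 12.67 on the adipose arrays and between 4.93 and 5.69 on the liver arrays, and 8 hepatocyte markers lay between 5.80 and 7.06 on the adipose arrays and between 12.28 and 13.18 on the liver arrays. Of these 8, 7 were lower in adipose NO than in liver NO, and Cyp2e1 was not (14.87 and 14.62, adjusted p = 0.544 from limma). Adipose IH 16, IH 19 and NO 4 stood apart, since they carried RNA of epididymis genes. Adam7 read 14.36, 14.95 and 12.05 on these arrays in that order, and 4.46 to 5.37 on the other adipose arrays. The 3 arrays did not carry the same epididymis genes. Lcn8 read 14.82 on IH 16 and 14.86 on IH 19, but 4.99 on NO 4. Lcn5 read 11.39 on IH 19, 4.95 on IH 16 and 4.62 on NO 4. The sperm gene Prm1 was spread over more of the adipose arrays, at 4.55 to 10.33 on IH and 4.58 to 11.13 on NO arrays. IH 19 was also lowest of the adipose arrays in the adipocyte markers (9.84, against 11.67 to 12.16 on the other IH arrays and 12.12 to 12.67 on the NO arrays). Adipose results are therefore given with and without these 3 arrays wherever a call depends on them. The 8 liver NO arrays lay on 1 chip and each other group on a pair of chips, none of which held both IH and NO arrays of 1 tissue, so chip and exposure cannot be told apart. In whole tissue, fewer cells of a type and less RNA per cell cannot be told apart either.

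Most of the machinery of mitosis was at or below the limit of detection in both tissues, whereas Ccnd1, Ccnd3, Cdk2, Rb1, Cdt1, Mcm4 and Tyms were detected on every array. Of the 38 genes with a probe, 31 were detected on at least 1 of 16 adipose arrays and 21 on at least 1 of 15 liver arrays. Detection on every array was reached by 13 genes in adipose tissue and 7 in liver. The 7 genes detected on no array were Ccne2, Cdk6, Orc1, Orc2, Ccna2, Ccnb2 and Bub1, and another 10 were detected on adipose arrays but on no liver array. Of the 6 genes of mitotic entry with a probe, 4 were detected on some adipose arrays and 0 on any liver array. Cdk1, the kinase that starts mitosis, was detected on 4 of 8 adipose IH and 1 of 8 adipose NO arrays. The polo kinase gene Plk1 was detected on 1 adipose IH and 2 adipose NO arrays, and Top2a, which untangles replicated chromosomes, on 0 and 1. Aurka, which matures the spindle poles, was detected on 2 adipose IH and 1 adipose NO arrays, and the phosphatase gene Cdc25b on 3 and 0. Of the helicase, Mcm3 was detected on 4 adipose IH and 0 adipose NO arrays and Mcm7 on 3 and 4, and the loader Cdc6 on 1 and 1. Ccne1, or cyclin E1, was detected on 1 and 3, Rrm2, the second subunit of ribonucleotide reductase, on 2 and 1, Bub1b of the spindle checkpoint on 1 and 1, and Tk1 on 5 and 1. These genes passed no filter for a test in adipose tissue alone. Where a gene was not detected, its signal was not above background, which does not show that its RNA was absent.

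**Figure D1:**
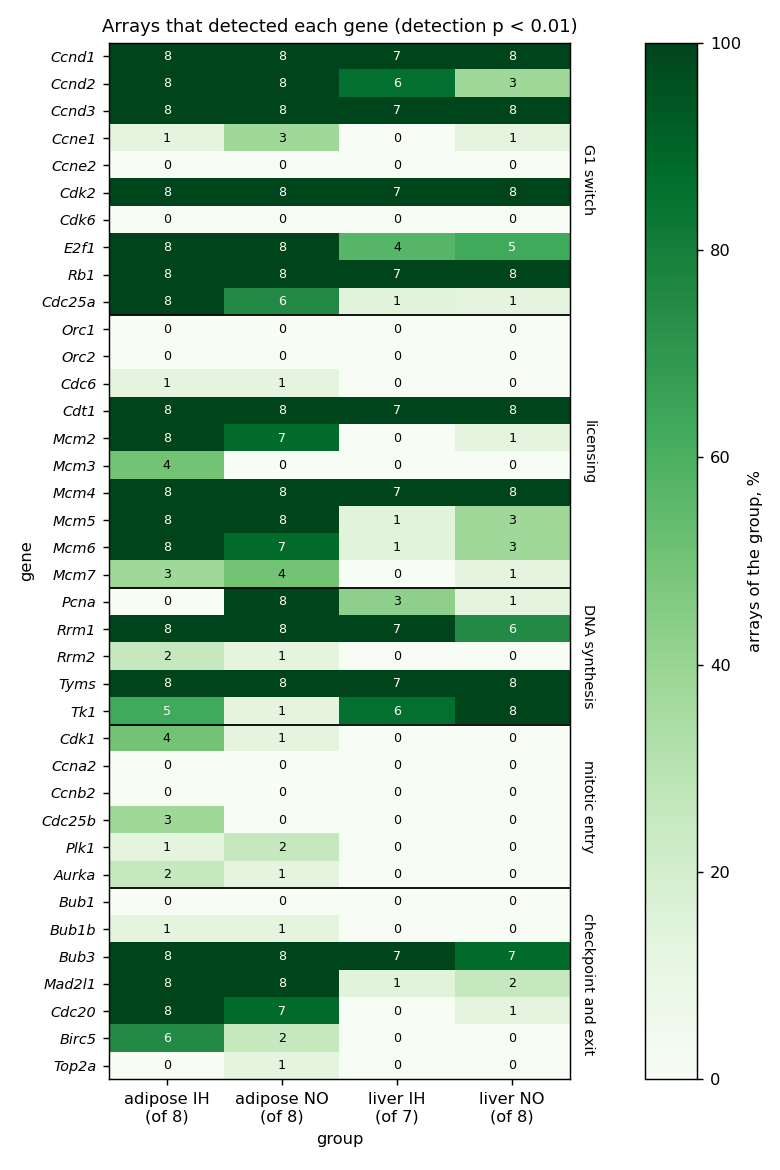
Number of arrays of each group (columns) that detected each of the 38 genes with a named probe (rows), with the colour giving the share of the group's arrays in percent and lines separating the roles. The 6 genes of mitotic entry have 0 in both liver groups, and 13 genes are detected on all 16 adipose arrays.

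The number of members detected per array was 18 to 25 in adipose IH (median 21) and 16 to 29 in adipose NO (median 18.5), a difference in means of 1.5 (two-sided exact permutation p = 0.455). In liver it was 10 to 15 in IH (median 12) and 10 to 19 in NO (median 11), with a difference of −0.09 (exact permutation p = 1). Under normoxia an adipose array detected 7.25 more members than a liver array (exact permutation p = 0.0014), while over all probes adipose arrays detected 2518 more. Between exposures, IH arrays detected 319 more probes on average than NO arrays in liver (exact permutation p = 0.0494). In adipose tissue IH arrays detected 440 more (exact permutation p = 0.147).

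Under normoxia 6 of the 7 G1 genes tested were higher in adipose tissue than in liver on their brightest probe. Cdc25a was the exception (0.36, adjusted p = 0.246). Tk1 was lower. Tyms and Bub3 were lower as well, but were higher in the values as the authors scaled them. Of 21 members that could be tested over both tissues, 15 were called at an adjusted p under 0.05 (limma), 12 higher and 3 lower in adipose tissue. Among all 8905 genes 73% were called, 43.3% higher and 29.8% lower, so the share of members called was close to that of genes at large. The median log2 difference of the members was 0.89 and that of all genes 0.20. A member was tested where its probe was detected on at least 7 of the 31 arrays, and a gene with several such probes was read from the brightest.

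Ccnd2, which encodes a D-type cyclin, was detected on 8 of 8 adipose NO and 3 of 8 liver NO arrays, so the size of its difference is taken against values mostly at background. Its log2 intensity was 9.78 to 11.12 on the adipose NO arrays (median 10.48), against 5.21 to 7.73 on the liver NO arrays (median 6.04), with no overlap. The difference was 4.21 (standard error 0.37, adjusted p = 1.4e-11), and all 8 adipose NO arrays lay above the liver mean (exact permutation p = 0.000155, the smallest that 8 against 8 allow). Rb1, the gate at the start of the cycle, lay at 10.69 to 11.21 on the adipose NO arrays (median 11.13) and at 8.00 to 8.91 on the liver NO arrays (median 8.42). It was higher by 2.64 (standard error 0.15, adjusted p = 5.03e-16), and its second probe by 1.76. Ccnd1, the D-type cyclin that mitogens induce, had 9.44 to 10.84 (median 10.07) in adipose NO and 7.92 to 9.19 (median 8.61) in liver NO, a difference of 1.34 (adjusted p = 9.43e-05). Again the groups did not overlap. Ccnd3 (0.98), Cdk2 (1.05), the kinase of the G1 to S step, and E2f1 (0.89) were higher as well on their brightest probes. Their adjusted p was at most 0.00042. The second probe of Ccnd3 had 0.07 (adjusted p = 0.794 from limma over all probes), and 2 of 8 liver NO arrays detected it. Of the other Cdk2 probes, 1 had 0.85 and 1 had −0.06 (adjusted p = 0.721). The probe with −0.06 was detected on 1 of 8 liver NO arrays.

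Of the helicase genes, Mcm4 was detected on every array of both tissues. It had 9.21 to 10.04 (median 9.45) in adipose NO and 7.54 to 8.45 (median 7.98) in liver NO, which do not overlap, and was 2.83-fold higher (standard error 0.12 on the log2 scale, adjusted p = 5.09e-13). Mcm5 had 6.52 to 8.21 (median 6.77) in adipose NO and 4.78 to 7.00 (median 5.65) in liver NO, with overlap. The difference was 1.16 (adjusted p = 0.000269), taken against liver values mostly at background, since 3 of 8 liver NO arrays detected Mcm5. Mcm6 had 4.46 to 8.64 (median 6.75) in adipose NO and 4.46 to 7.64 (median 5.14) in liver NO on its brightest probe over both tissues, which 3 of 8 liver NO arrays detected. It was higher by 1.14 (standard error 0.41, adjusted p = 0.0146), and the call was lost when only the 16 NO arrays were fitted (adjusted p = 0.0556). Its other probes were detected on no liver array. Mcm2 (0.35) and Mcm7 (−0.08) did not pass. Pcna had 6.06 to 7.26 (median 6.69) in adipose NO and 4.73 to 6.31 (median 5.65) in liver NO, where 1 of 8 arrays detected it. It was called higher (adjusted p = 5.89e-06), and with the liver values mostly at background no size is given.

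Tk1, which salvages thymidine for DNA synthesis, went the other way. Its log2 intensity was 4.48 to 6.55 on the adipose NO arrays (median 4.99), where 1 of 8 detected it, against 6.61 to 8.28 on the liver NO arrays (median 7.61), where all 8 did. The measured difference was −2.51 (standard error 0.31, adjusted p = 1.68e-08), of which the adipose side was mostly background, and without background correction it was −1.14. The highest adipose array lay just below the lowest liver array. Rrm1, a subunit of ribonucleotide reductase, had a difference of 0.52 (adjusted p = 0.0401). Tyms, which makes thymidylate from deoxyuridylate, had a difference of −0.74 (adjusted p = 1.05e-05), with −0.41 on its second probe. That second probe was detected on 1 of 8 liver NO and 2 of 8 adipose NO arrays, so its values are mostly background. Bub3, of the spindle checkpoint, had a difference of −0.33 (standard error 0.15, adjusted p = 0.0442). Cdc20, the activator of the anaphase-promoting complex, was called higher (adjusted p = 0.000164 from limma). The probe read here was detected on 7 of 8 adipose NO arrays and on no liver array, so it passed the filter through adipose tissue alone. The count of members called higher includes it. Setting the adipose NO mean against the higher of each liver NO array's signal and its lowest detected signal gave a bound of 0.76-fold. Even a higher level is therefore not fixed, and no size is given. Birc5, or survivin, of the chromosomal passenger complex, missed the threshold at 0.48 (adjusted p = 0.0504).

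**Figure D2:**
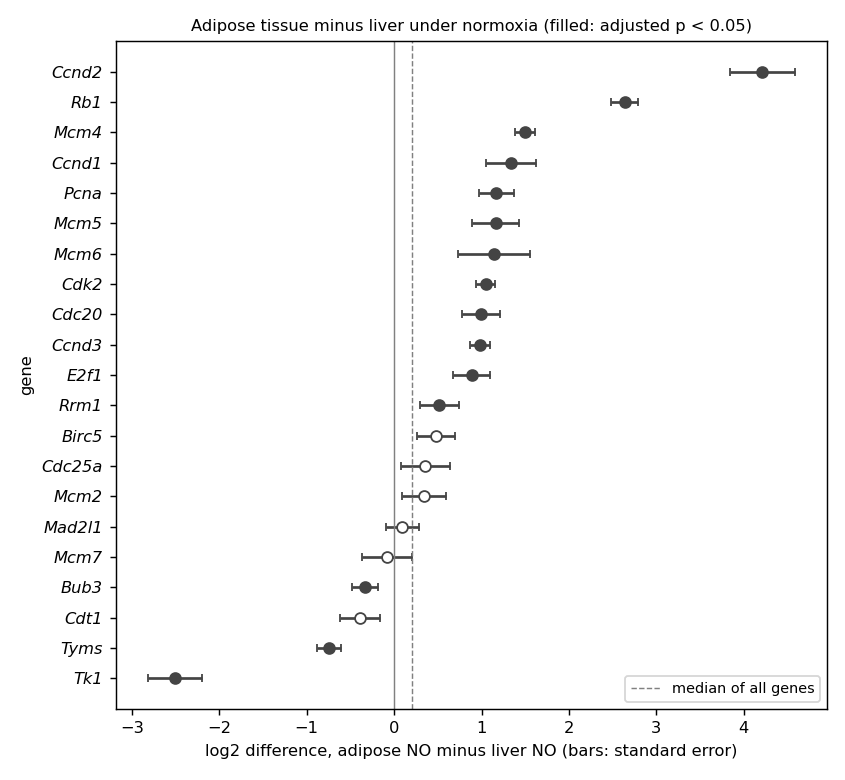
Log2 difference between adipose NO and liver NO (horizontal axis) for the 21 members tested, with bars of 1 standard error, filled points for those called and the dashed line at the median of all genes, 0.20. Ccnd2 lies farthest to the right at 4.21 and Tk1 farthest to the left at −2.51.

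In the processed values that the authors deposited for the same arrays the scale differed between tissues: the median of all genes lay 0.88 higher in adipose tissue, 8258 of 8905 genes were called, and of 21 members 20 were higher and 1, Tk1, lower (−0.39). Ccnd2 (3.77), Rb1 (3.34), Mcm4 (2.28) and Ccnd1 (2.25) lay above that shift, and Mcm6 (0.84) lay just below it. Liver NO and adipose NO arrays shared no chip, and on the 1 chip that held adipose NO and liver IH arrays 13 of 21 members were called between these groups, where 64.7% of 8905 genes were, in a contrast that joins tissue with exposure.

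In the IH liver no member was called. At an adjusted p under 0.05 limma called 0 of 12 members, where it called 0.931% of 6443 genes. With no adjustment, 1 of 12 had p at or under 0.01, where 6.24% of all genes did, and 1 had p under 0.05. In the other settings run, 0 members were called as well. The 12 log2 differences ran between −0.44 and 0.22 with a median of 0.03 (all genes −0.01), and 6 were above 0.

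The member past the unadjusted threshold was Ccnd3, which encodes cyclin D3. It had 9.41 to 9.87 on the IH livers (median 9.62), against 9.77 to 10.49 on the NO livers (median 9.95), and each of the 7 IH arrays lay below the NO mean. The groups overlapped slightly. The difference was −0.37 (standard error 0.11, unadjusted p = 0.00404, adjusted p = 0.116 from limma, exact permutation p = 0.00186). With only the IH arrays of chip 2 it was −0.19 (adjusted p = 0.853 from limma). With only those of chip 3 it was −0.45 (adjusted p = 0.0962 from limma). Ccnd1 had 7.37 to 8.93 in IH livers (median 8.19) and 7.90 to 9.19 in NO livers (median 8.60), a difference of −0.44 (standard error 0.26, adjusted p = 0.426). The other probes of Ccnd1 had −0.84 and −0.56, and none passed (lowest adjusted p = 0.127). Mcm4 had 7.63 to 7.95 in IH livers (median 7.84) and 7.52 to 8.44 in NO livers (median 7.97), a difference of −0.15. Cdk2 had 9.08 to 9.66 in IH livers (median 9.34) and 9.03 to 9.66 in NO livers (median 9.18), a difference of 0.13. These ranges lay within or nearly within each other.

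E2f1, a transcription factor that the retinoblastoma protein holds in check, had 5.70 to 6.35 in IH livers (median 6.07) and 5.25 to 7.14 in NO livers (median 6.41), a difference of −0.25. Rrm1 had 6.52 to 7.05 in IH livers (median 6.86) and 5.52 to 7.13 in NO livers (median 6.84), a difference of 0.22. For these 4 genes the adjusted p lay between 0.565 and 0.665. Pcna was not tested in liver alone, since 3 of 7 IH and 1 of 8 NO livers detected it.

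Ccnd2 varied widely in the liver, at 4.81 to 6.92 in IH livers (median 6.47) and 5.18 to 7.72 in NO livers (median 5.98), detected on 6 of 7 and 3 of 8. The difference was 0.10 with a standard error of 0.40. Tk1 also varied among mice of 1 group, from 6.07 to 8.96 in IH livers and 6.58 to 8.27 in NO livers (difference −0.01, standard error 0.38). For these genes the spread between mice would hide all but large changes. For Tyms, by contrast, the standard error was 0.11, at a difference of 0.07.

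In adipose tissue 6 of 19 members were called under IH, 3 higher and 3 lower, or 31.6%. This is close to the background, because limma called 32.1% of 8207 genes at an adjusted p under 0.05, 17.6% higher and 14.5% lower. With no adjustment, 6 members had p at or under 0.01, where 29% of all genes did. The median log2 difference was 0.09 over the members and 0.11 over all genes. By role, 1 of 7 G1 genes was higher and 2 lower, 1 of 5 licensing genes was higher, 1 of 3 genes of DNA synthesis was lower, and 1 of 4 genes of the checkpoint and exit was higher. With only the IH arrays of 1 chip (chip 6), or only the NO arrays of 1 chip (chip 4), 3 of 19 members were called, where 25.1% and 23.7% of all genes were.

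**Figure D3:**
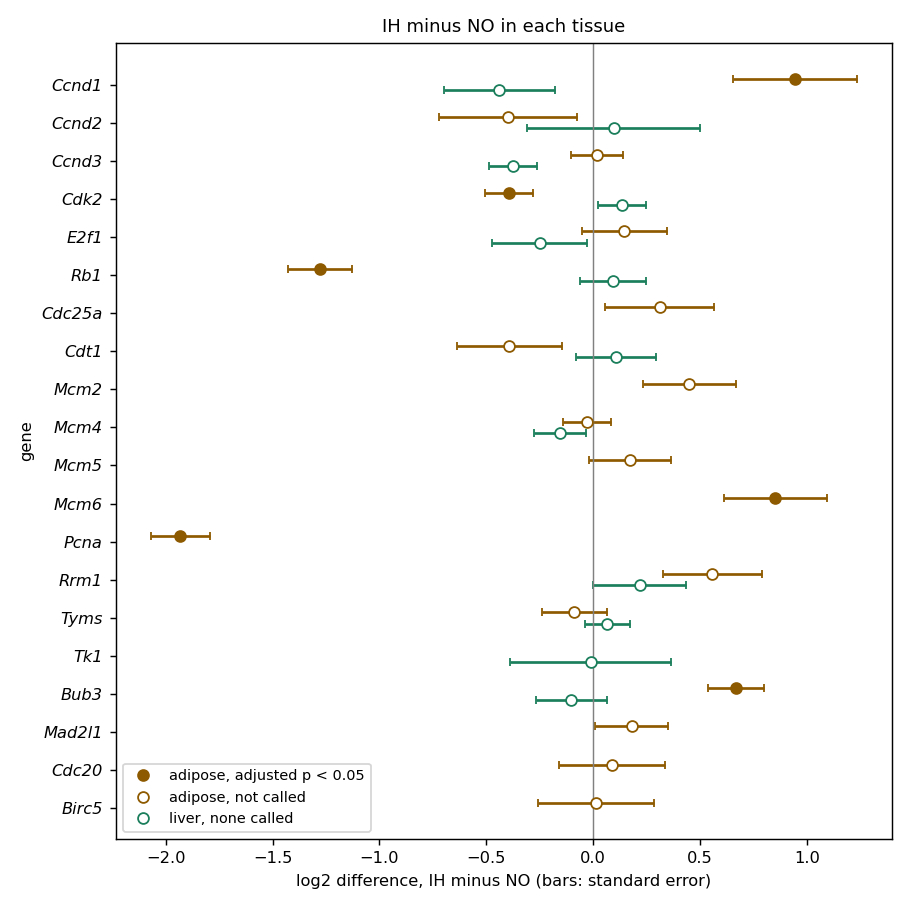
Log2 difference between IH and NO (horizontal axis) in adipose tissue and in liver for each member tested, with bars of 1 standard error. Filled points passed an adjusted p under 0.05, which 6 adipose members and no liver member did, with Pcna at −1.93 and Ccnd1 at 0.94 at the ends.

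Pcna, the sliding clamp of the replication fork, had the smallest p of the members. It read 4.49 to 4.91 on the adipose IH arrays (median 4.85) and 6.11 to 7.28 on the adipose NO arrays (median 6.73). Every IH array lay below every NO array, and its only probe was detected on 0 of 8 IH arrays and 8 of 8 NO arrays. The probe passed the detection filter through the NO arrays alone, and the measured difference of −1.93 (standard error 0.14, adjusted p = 4.21e-09 from limma) is taken against background. With no detection filter the adjusted p was 1.03e-08. The size depends on the background correction, and without it the difference was −0.69 (adjusted p = 5.24e-07). Without the probes lost in this way 5 of 18 members were called, where 31.1% of 8115 genes were. Since the IH values are not above background, the fold is a bound: after background correction Pcna was at least 2.67-fold lower in IH, setting the NO mean against the higher of each IH array's signal and its lowest detected signal.

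The loss of Pcna did not stand alone. Of 9431 probes detected on every adipose NO array, 171 were detected on no adipose IH array, whereas 10 showed the opposite pattern. In liver these counts were 1 and 2. The probe of Pcna was the only 1 of the member probes among the 171. Where a gene's brightest probe was lower by more than 1 in adipose IH at an adjusted p under 0.05 and another probe was kept, 51 of 104 genes had another probe with a difference above 0, and 21 had every other probe lower by more than 1. The part of this in the values of Pcna was not tested, as it has a single probe.

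Rb1 was such a gene. Its brighter probe had 8.97 to 10.19 on the IH arrays (median 9.88) and 10.69 to 11.21 on the NO arrays (median 11.13), without overlap. The difference was −1.28 (fold 0.41, standard error 0.15, adjusted p = 3.38e-06, exact permutation p = 0.000155). Its other probe had 8.52 to 9.36 on the IH arrays and 8.39 to 8.95 on the NO arrays, a difference of 0.24 (standard error 0.12, adjusted p = 0.144). Both probes were detected on all 16 arrays, so the direction of Rb1 in adipose IH depends on the probe.

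Cdk2 and Mcm6 were split in the same manner. The brightest probe of Cdk2 had 9.52 to 10.35 on the IH arrays (median 9.90) and 10.06 to 10.53 on the NO arrays (median 10.28), with 7 of 8 IH arrays below the NO mean, a difference of −0.39 (standard error 0.11, adjusted p = 0.014). The other probes had differences of 0.03 and 0.34, of which 0.34 was called (adjusted p = 0.0249 over all probes). For Mcm6 the brightest probe had 6.55 to 7.46 on the IH arrays (median 6.93) and 5.33 to 7.26 on the NO arrays (median 6.09), and was higher by 0.85 (standard error 0.24, adjusted p = 0.0123). Of the other probes, 1 had a difference of 0.68 and 1 of −1.25 (standard error 0.40, adjusted p = 0.0226). On the probe with −1.25 the IH arrays lay between 4.97 and 6.09 and the NO arrays between 4.33 and 8.65, with NO 2 at the bottom and NO 5 at the top. With the mean of the kept probes, Cdk2 read −0.01 (adjusted p = 0.971) and Mcm6 0.09 (adjusted p = 0.812).

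**Figure D4:**
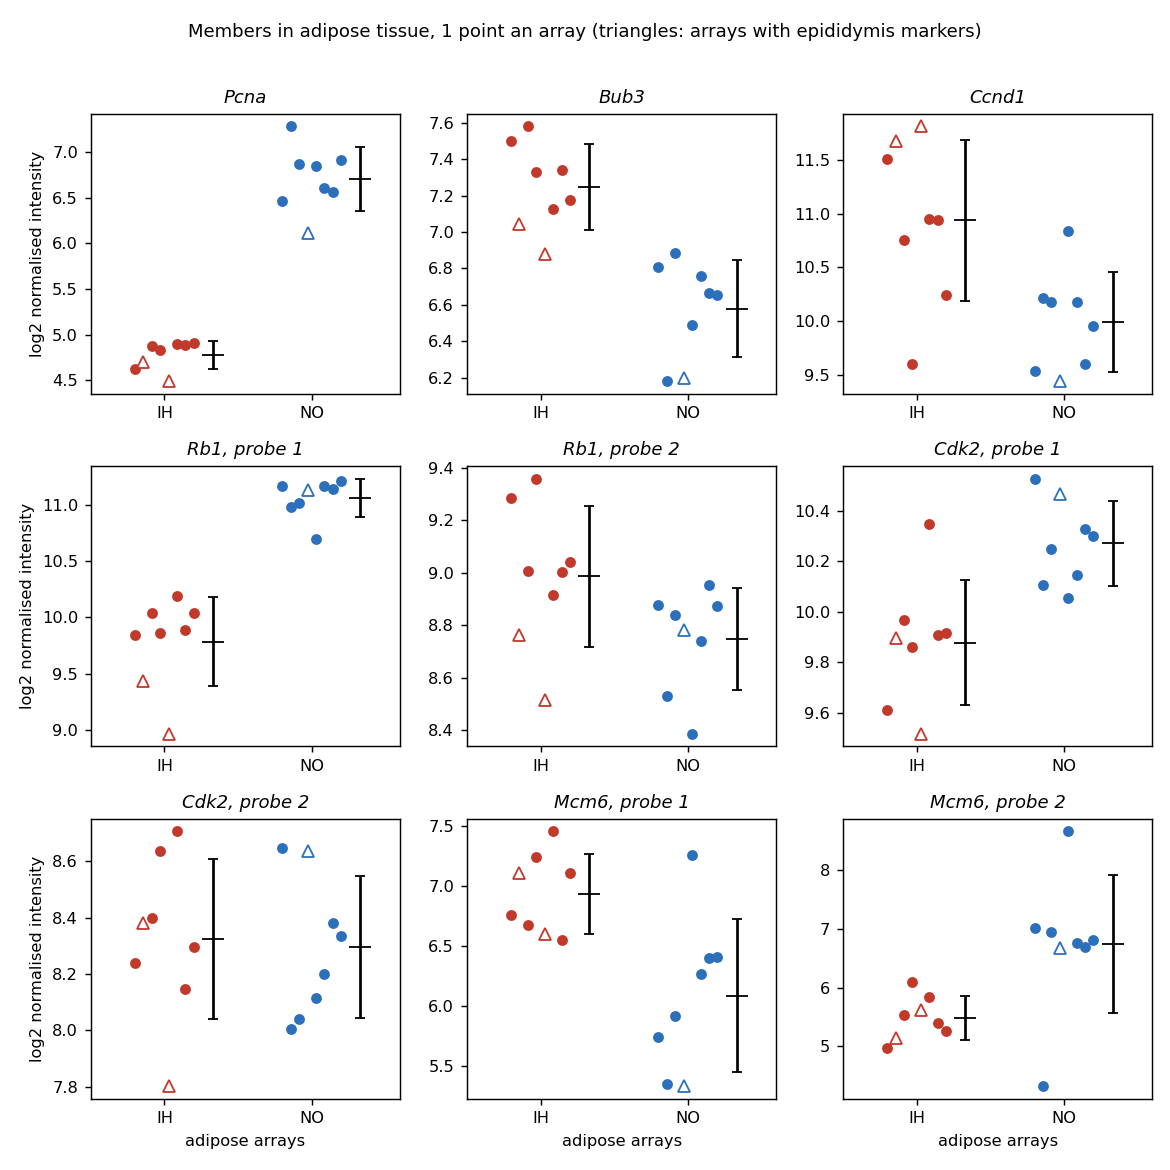
Log2 normalised intensity of 9 probes on each adipose array, IH left and NO right in each panel, with the mean and SD (n = 8 each) beside the points and triangles for the 3 arrays with epididymis markers. Pcna and the first probe of Rb1 separate the groups, the second probes of Rb1 and Cdk2 do not, and the 2 probes of Mcm6 go in opposite directions.

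Bub3 and Ccnd1 were higher under IH. Bub3 has 1 probe, which had 6.88 to 7.58 on the IH arrays (median 7.25) and 6.18 to 6.88 on the NO arrays (median 6.66). All 8 IH arrays lay above the NO mean and the groups only just met. The difference was 0.67 (fold 1.59, standard error 0.13, adjusted p = 0.000778, exact permutation p = 0.000311), and it kept its call in each of 20 alternatives, although without background correction it was 0.36. The lowest Bub3 values of the IH group were those of IH 19 (6.88) and IH 16 (7.04). Ccnd1 had 9.60 to 11.81 on the IH arrays (median 10.95) and 9.44 to 10.84 on the NO arrays (median 10.07), a difference of 0.94 (fold 1.92, standard error 0.29, adjusted p = 0.0201, exact permutation p = 0.00979). Its other probes had 0.99 and 1.36, both called. The highest Ccnd1 values were those of IH 19 (11.81) and IH 16 (11.68), which carried epididymis RNA. Without these and NO 4, Ccnd1 had a difference of 0.60 (adjusted p = 0.122), Cdk2 −0.31 (adjusted p = 0.0622), and 4 members were called in place of 6.

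Most other members had small differences in fat. Ccnd3 (0.02), Mcm4 (−0.03), Tyms (−0.09), Cdc20 (0.09) and Birc5 (0.01) had adjusted p of at least 0.698, with standard errors of 0.11 to 0.27. Cdt1 had 5.92 to 6.59 on the IH arrays (median 6.35) and 6.05 to 8.26 on the NO arrays (median 6.52), a difference of −0.39 (adjusted p = 0.239). Rrm1 had 7.32 to 9.12 on the IH arrays (median 7.57) and 6.49 to 7.62 on the NO arrays (median 7.21), a difference of 0.56 (standard error 0.23, adjusted p = 0.0731). Mcm2 had 5.70 to 7.39 on the IH arrays (median 6.17) and 5.39 to 6.71 on the NO arrays (median 5.68), a difference of 0.45 (adjusted p = 0.124). The highest values of both Rrm1 and Mcm2 were those of IH 19, which was highest of the IH arrays for 22.4% of all genes.

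The effect of IH differed between the tissues for 5 of 21 members, or 23.8%, where 22.3% of 8905 genes differed. The difference, adipose effect minus liver effect, was −2.39 for Pcna (standard error 0.29, adjusted p = 1.02e-07 from limma), −1.37 for Rb1 (adjusted p = 1.4e-05), −0.53 for Cdk2 (adjusted p = 0.016), 0.78 for Bub3 (adjusted p = 0.00706) and 1.38 for Ccnd1 (standard error 0.40, adjusted p = 0.0132). The value of Pcna rests largely on background, since 0 of 8 adipose IH, 3 of 7 liver IH and 1 of 8 liver NO arrays detected it. For Ccnd1 the adipose effect was above 0 and the liver effect below 0. With the second brightest probe Rb1 read 0.04 (adjusted p = 0.922). The other probes of Cdk2 had −0.23 (adjusted p = 0.402) and 0.19 (adjusted p = 0.552) in limma over all probes. Without the 3 arrays with epididymis markers Ccnd1 (1.03, adjusted p = 0.0638) and Cdk2 (−0.44, adjusted p = 0.0523) were no longer called. Both calls were also lost when equal title numbers were fitted as a block, a pairing that the labels do not state.

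Adipose NO 5 stood apart from the other NO arrays in the genes of replication and mitosis. Of the 12 members of these roles tested in adipose tissue, it had the highest value of the 8 NO arrays for 10, while it was highest for 12.1% of all 8207 genes. The exceptions were Pcna and Bub3. Birc5 had 4.87 to 5.63 on the IH arrays, against 7.03 on NO 5 and 4.59 to 5.87 on the other 7 NO arrays. Cdt1, which loads the helicase, had 8.26 on NO 5 and 6.05 to 6.95 on the other NO arrays. Cdc20 had 7.37 on NO 5 and 5.43 to 6.63 on the others, Mcm5 8.22 and 6.55 to 7.24, and Mcm4 10.05 and 9.22 to 9.60. Apart from Birc5, these values were 1.55-fold (Mcm4) to 3.47-fold (Cdt1) above the mean of the other NO arrays. The probe of Birc5 was detected on 2 of 8 NO arrays, so most of its values are background and no fold is given. NO 5 was also the array with the most members detected, at 29.

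**Figure D5:**
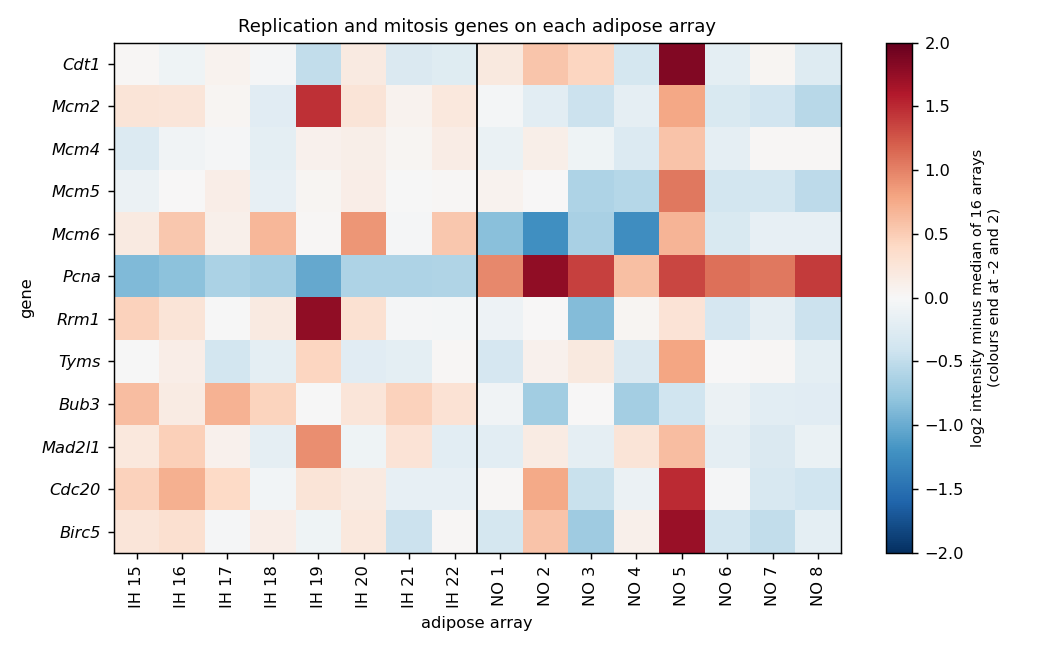
Log2 intensity minus the median of the 16 adipose arrays for the 12 replication and mitosis members tested (rows), with IH arrays left and NO arrays right of the line. The column of NO 5 is above the median for all but Bub3, and the row of Pcna splits IH from NO.

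The same array was highest of the NO group for 10 of 15 genes of a second list of mitosis genes, such as Cenpa, Prc1, Nusap1 and Incenp, and for 8 of 28 further replication genes, such as Fen1, Lig1, Uhrf1 and Chaf1b. Among 7 cohesin genes it was highest for 0 and among 13 genes of the anaphase-promoting complex and related ligases for 1. Of the marker lists it was lowest of the NO arrays in adipocyte markers (12.12, others 12.14 to 12.67) and highest in mesothelial markers (8.85, others 6.94 to 8.37). NO 5 was also lowest of the NO arrays in erythroid markers (10.30, others 10.90 to 12.19). Its macrophage markers (7.42) lay within the NO range of 6.69 to 7.95, and its epididymis markers (4.85) were at background. The part of these cells in the values of NO 5 was not tested.

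The promoters of members that were high on this array, undetected in adipose IH or near background are shown to set their E2F, CCAAT and CHR elements side by side. Each is the stretch of 160 bases just before the start site in RefSeq (GRCm38.p6), 5′ to 3′ on the gene's strand, with matches in capitals. The motifs searched were TTTGGCGC, TTTCGCGC and TTTCCCGC for E2F, TTTGAA for the cell cycle homology region (CHR) and CCAAT, on both strands, in windows from 250 bases before the start to 50 after. Mcm5 lies at chr8:75109349-75109508 (plus strand), Mcm6 at chr1:128359706-128359865 (minus), Pcna at chr2:132253181-132253340 (minus), Cdk1 at chr10:69352913-69353072 (minus) and Cdc20 at chr4:118437344-118437503 (minus).
Mcm5: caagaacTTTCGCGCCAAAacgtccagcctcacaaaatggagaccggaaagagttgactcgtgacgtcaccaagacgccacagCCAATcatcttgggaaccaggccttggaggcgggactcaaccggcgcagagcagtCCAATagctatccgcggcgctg
Mcm6: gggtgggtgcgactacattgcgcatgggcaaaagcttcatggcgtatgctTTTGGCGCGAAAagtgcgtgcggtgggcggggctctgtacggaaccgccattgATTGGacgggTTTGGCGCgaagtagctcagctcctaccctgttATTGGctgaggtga
Pcna: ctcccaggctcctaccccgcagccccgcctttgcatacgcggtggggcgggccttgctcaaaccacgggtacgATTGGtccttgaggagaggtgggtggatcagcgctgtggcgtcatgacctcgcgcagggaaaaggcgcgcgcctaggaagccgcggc
Cdk1: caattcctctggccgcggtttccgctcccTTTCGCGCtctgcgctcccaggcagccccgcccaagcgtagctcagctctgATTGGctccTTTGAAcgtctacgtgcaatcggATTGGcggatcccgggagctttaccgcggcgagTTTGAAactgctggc
Cdc20: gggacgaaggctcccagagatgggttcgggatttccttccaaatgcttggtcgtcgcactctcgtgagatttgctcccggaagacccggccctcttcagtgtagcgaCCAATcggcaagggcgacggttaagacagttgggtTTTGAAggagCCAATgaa

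The stretch of Mcm5 held 2 overlapping E2F matches on opposite strands, and that of Mcm6 held 3, of which 2 overlap. Cdk1 held 1 E2F match, 2 CHR matches and 2 of CCAAT, and Cdc20 held 1 CHR match between 2 of CCAAT. Pcna held none of the E2F letters and 1 match of CCAAT. Promoters were found for 35 of the 42 genes (39 windows, since 4 genes had several starts), and those of Ccnd1, Ccnd2, Ccne2, Rb1, Mcm4, Ccna2 and Aurkb were not matched. The E2F letters stood in 25.6% of the members' windows and in 1.84% of all 32851 windows, CHR in 28.2% and 17.9%, and CCAAT in 71.8% and 37.4%. A match is a description of letters and not a bound site.

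Further genes of the cycle are given by the counts called in adipose IH, where 32.1% of all genes were. Of 28 other replication genes 5 were higher and 3 lower, with a median of 0.22. Among these Rfc4, of the clamp loader, had a difference of −1.16 (adjusted p = 9.62e-08), Orc4 had 4.94 in IH, where 1 of 8 arrays detected it, and 6.26 in NO, and Orc5, of the same origin complex, had a difference of 0.43 (adjusted p = 0.00516). Of 15 other mitosis genes 0 were higher and 2 lower, namely the kinetochore gene Spc24 (−1.70) and Nusap1 (−0.76), while Ncaph, of condensin, had 0.49 (adjusted p = 0.0565). Of 20 inhibitors and damage response genes 0 were higher and 4 lower. Cdkn2b, which encodes an inhibitor of Cdk4 and Cdk6, had 4.62 in IH and 7.00 in NO, with its probe detected on 0 and 8 arrays. Ccng2 had 5.00 in IH, where 2 of 8 arrays detected it, and 7.59 in NO, and the antiproliferative gene Btg1 was lower (−0.98, adjusted p = 0.00175).

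Of 19 other cyclins, kinases and E2F genes 5 were higher and 3 lower. Ccnl1 had a difference of −2.67 (adjusted p = 2.68e-09) and Ccnt1, of the elongation factor P-TEFb, of 0.89. Ccni had 4.57 in IH and 6.24 in NO, on a probe that no IH array detected. Of 13 genes of the anaphase-promoting complex and related ligases 2 were higher and 3 lower, namely Cul1 (−1.62), Cdc16 (−1.38) and Rbx1 (−0.65). Of 7 cohesin genes, which hold sister chromatids together, 0 were higher and 3 lower. Stag1 had a difference of −1.78, Smc3 had 5.13 in IH and 7.97 in NO, and Rad21 4.52 in IH and 6.22 in NO, and the probes of Smc3 and Rad21 were detected on 0 of 8 IH arrays and 8 of 8 NO arrays. Like those of Cdkn2b and Ccni, these probes passed the filter through the NO arrays alone. Beside these, 2 of 3 macrophage markers tested were lower in adipose IH, namely Adgre1 (−2.81) and Cd163 (−1.80). Lyz2 had −0.03 (adjusted p = 0.979 from limma). The mean over 7 macrophage markers was 5.80 to 6.90 on IH and 6.69 to 7.95 on NO arrays. That mean includes Itgam and Clec4f, detected on no adipose array, and Ptprc and Marco, detected on 1 and 4. Of 7 adipocyte markers Fabp4 alone was called (−3.34). Of 8 stromal markers 2 were higher (Col1a1 1.42, Thy1 0.73) and 2 lower (Col3a1 −3.20, Col1a2 −1.45), of 7 mesothelial markers Krt19 was higher (1.34) and Wt1 lower (−0.81), and of 6 endothelial markers Kdr was lower, detected on 1 of 8 IH and 7 of 8 NO arrays. The part of such cells in the members' values was not tested.

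In liver IH the same lists held few calls. Anapc7, of the anaphase-promoting complex, had a difference of −0.51 (adjusted p = 0.0446) and was the only gene called in these lists. Cdkn1a, which encodes the inhibitor p21, had a difference of −1.40 (standard error 0.35, adjusted p = 0.0687), Ccng2 −0.62 and Gadd45a 1.20 (adjusted p = 0.327). Among the others with the smallest p, Rfc2 had −0.40, Mcm10 0.82, Orc6 0.22, Spc24 0.38, Cdca3 −0.22, Mad1l1 −0.16, E2f3 −0.52, E2f5 −0.36, Mnat1 −0.27, Anapc13 0.17, Cul1 −0.16, Nipbl −0.32, Stag1 −0.13 and Smc3 −0.17, with adjusted p between 0.137 and 0.668.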

How the data were processed

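RNA of liver and epididymal adipose tissue (250 ng each) was read on Illumina MouseRef-8 v2.0 BeadChips, 31 arrays on 6 chips. Per the methods, the authors extracted probe intensities with GenomeStudio and added no normalization, yet the deposited intensities had near equal sorted values on every array (range 101.33 to 34876.9, medians 136.278 to 136.81), as after quantile normalization, which can compress differences between tissues. The deposited detection p-values compare each probe with the negative controls of its array. The second table that the authors deposited, of processed intensities, has a median of 121.544 in liver and 151.598 in adipose tissue, with its scaling not stated. The methods name SAM at a false discovery rate in place of the test used here.

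Of 25697 probes 23978 had 1 symbol in the platform annotation and 1719 none. Values were background corrected, quantile normalized and put on the log2 scale with neqc (offset 16) in limma 3.58.1 (R 4.3.3), within a tissue or over all 31 arrays. Probes detected (p under 0.01) on at least 7 liver, 8 adipose or 7 of all arrays were kept, and where a gene had several of these the brightest stood for it. Groups were compared with limma (lmFit, eBayes), adjusted by Benjamini-Hochberg over all genes kept; single values with two-sided exact permutation tests. No arrays were identical (highest r 0.992). The numbered samples of a group were taken as replicates, and p-values measure the spread between these arrays, which may be technical in part. The members and lists were chosen with earlier results of these data known. Values per array are given for members called, for the 6 smallest p per IH comparison, for the 8 largest tissue differences and for outlying arrays; of the other lists, the 3 genes with the smallest p are named. Alternatives changed the normalization, offset, values, filter, probe, test, chip and arrays. Scripts were tested on simulated data. Promoters are from RefSeq (GRCm38.p6).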

Additional observations from a re-analysis of the deposited data

Results flagged for a closer look

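Each member tested was searched, within each group of 7 or 8 arrays, for an array far from the others. Of these 62 searches 10 flagged an array (16.1%). The rule by itself flags about 1 in 20, but the searches share arrays and are not independent, so an excess was not tested. Adipose NO 5 gave 6 of these. It was high for Cdt1 (8.26, others 6.05 to 6.95), Mcm2 (6.71, others 5.39 to 5.91), Mcm4 (10.05, others 9.22 to 9.60), Mcm5 (8.22, others 6.55 to 7.24) and Tyms (7.82, others 6.70 to 7.22), and low for Rb1 (10.69, others 10.98 to 11.21). Adipose IH 19, which carried epididymis RNA, gave 3: it was high for Mcm2 (7.39, others 5.70 to 6.19) and Rrm1 (9.12, others 7.32 to 7.81), and low for Ccnd3 (10.46, others 10.94 to 11.29). Among the IH arrays, IH 19 was highest for 22.4% and lowest for 35.7% of all 8207 genes. Liver IH 17 was low for Ccnd2 (4.81, others 6.26 to 6.92).

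The IH effect differed between adipose tissue and liver, by the test of the difference in limma, for Pcna (−2.39), Rb1 (−1.37), Cdk2 (−0.53), Bub3 (0.78) and Ccnd1 (1.38), each given as the adipose effect minus the liver effect on the log2 scale. The value of Pcna rests largely on background, and those of Rb1 and Cdk2 on their brightest probe. The calls of Ccnd1 and Cdk2 were lost without the arrays with epididymis markers.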

How the results depend on the processing

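No liver member was called in any of 16 alternatives or with any 1 array left out (0 to 0). In adipose tissue 6 members were called, 3 to 7 over 20 alternatives and 6 to 8 with 1 array left out. Only the IH arrays of chip 6 gave 3 and only the NO arrays of chip 4 gave 3. With all 31 arrays in 1 fit Mcm6 read −1.28 (adjusted p = 0.0168), because another probe was then brightest. With the second brightest probe Mcm6 read −1.25, Cdk2 0.031 and Rb1 0.24, and the difference in IH effect between tissues read 0.037 for Rb1. The IH effects of Bub3 and Pcna in adipose tissue kept their sign and call in every alternative that tested them, but without background correction their sizes were 0.36 and −0.69.

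Between tissues 15 members were called, 13 to 16 with 1 array left out, and 6 when detection on every array left 7 to test. In IH in place of NO arrays Pcna read −1.22 (adjusted p = 4.85e-06) and Mcm6 −0.17 (adjusted p = 0.719). For the effect of IH between tissues the count of 5 became 3 with detection on every array and 3 with the second brightest probe (5 to 6 with 1 array left out). Members that passed the detection filter numbered 12 in liver, or 7 where every array had to detect them, and 19 in adipose tissue, or 29 at a detection p under 0.05. Of these alternatives, those on epididymis arrays, second brightest probes and lost probes were chosen after seeing the data. Depth here is signal over background: most mitosis genes lay at background, where differences cannot be seen.

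Equal title numbers in both tissues were not taken as a pairing, since the labels do not state one. Yet 8 of 15 pairs of equal number had a correlation over 0.1 (−0.03 to 0.21), and 8 of 15 correlated best with their own number. This is a hint from the data that equal numbers may be the same mouse. With a replicate block 15 members were called between tissues and 5 for the difference in IH effect, where Ccnd1 (1.30, adjusted p = 0.0533) and Cdk2 (−0.49, adjusted p = 0.0556) were lost. Within a tissue no block could be fitted, as IH and NO arrays share no numbers.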
